A study of Mus musculus with 6 samples.

Results

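BRAF and 9 genes whose transcripts are commonly read as ERK output were followed in A375 melanoma grafts under an EZH2 inhibitor. The rule named 10 human genes by Ensembl identifier: BRAF, DUSP4, DUSP6, SPRY2, SPRY4, SPRED1, ETV4, ETV5, FOSL1 and PHLDA1. Of these, 8 had rows in the data, in 9 of the 15234 loci listed, with 80 transcript events in all. No row carried the identifier of ETV5 or of PHLDA1. For SPRY2 the single locus under its identifier held 1 start and 1 end in 1 tumour, so 7 genes could be tested.

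A375 is an established human melanoma cell line known to carry an activating mutation of BRAF, and the labels give its genotype as WT for all samples. The cells were injected under the skin of BALB/c nude mice, which lack T cells, and RNA was taken from the tumours on day 27. Vehicle tumours came from mice given vehicle by mouth once a day, and ZLD1039 tumours from mice given 100 mg/kg of that EZH2 inhibitor in the same way. EZH2 is the histone H3 methyltransferase of the Polycomb system. Each group had 3 sequenced tumours, from 5 mice per group in the labels. The labels do not tie each tumour to its own mouse, so that the p-values cover the variation among the sequenced tumours, which may in part be technical.

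BRAF is a kinase that passes a signal from RAS to MEK and from MEK to ERK. Active ERK raises the transcription of genes that shut the pathway down again: DUSP phosphatases that dephosphorylate ERK, and Sprouty and SPRED proteins that act on receptors, RAS and RAF. It also raises transcription factors that carry the signal on, among them the ETS factors ETV4 and ETV5 and the AP-1 member FOSL1. In melanoma with active BRAF the levels of these transcripts are used as a readout of ERK activity.

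Abundance was given in FPKM, fragments scaled to transcript length and library size, for each transcript event: a start, an end, an exon kept or skipped, an intron kept or removed. Each locus was given the highest of 3 values: its starts summed, its ends summed, and its largest event. The tumours listed 117347 to 126622 events in 12114 to 12758 loci. Sequencing depth is unknown from these values, and counting error could not be computed. Events without abundance are not listed, and whether an unlisted locus is silent cannot be told from these values. IER3, another ERK target, stood at 84.6 FPKM in vehicle tumour 3 and was not listed in the other 5 tumours. ZLD1039 tumour 2 stood apart, with a mean correlation of 0.919 with the other tumours over all tested loci, against 0.934 to 0.943. It also listed the fewest events and loci and had the highest summed locus abundance, 269195.8 FPKM against 225629.8 to 249641.2 FPKM. Of the melanocyte lineage markers, SOX10 ranged from 21.3 to 70.0 FPKM, S100B from 1.09 to 8.98 and MITF from 0.579 to 2.21. PMEL reached 0.457 FPKM, and MLANA, TYR and DCT had no rows. RNA of the mouse host that aligned to human genes cannot be told apart from graft RNA. The leukocyte marker PTPRC and the endothelial markers PECAM1 and VWF had no rows, and LYZ reached 0.905 FPKM. The identifier of CD68 lay on a locus of 634 to 924 FPKM that spans far more than that gene (chromosome 17, 7452208 to 7483645) and was not used as a marker. The fibroblast genes COL1A1, COL1A2 and ACTA2 stayed at or below 4.65, 3.36 and 3.78 FPKM.

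None of the 7 tested genes passed the threshold between ZLD1039 and vehicle tumours (limma, Benjamini-Hochberg adjusted p of at least 0.881). Over all loci 0.0185% passed, 2 of 10834. Differences are given as ZLD1039 minus vehicle on the scale of log2(FPKM + 1), which understates changes of low values. All 7 differences lay below 0, with a median of -0.12, while 47.2% of all tested loci lay below 0 and their median was 0.019. The differences of DUSP4, SPRED1 and BRAF were small and turned sign when single tumours were left out. The members were chosen with earlier results of these data known, so the shared sign does not test them as a set. SPRY4 was the single member with an unadjusted p under 0.05, where 4.94% of all loci had one. It was also the single member with all ZLD1039 tumours below all vehicle tumours, as were 5.20% of all loci. In RNA from whole tumours, fewer cells that express a gene and less RNA per cell cannot be told apart.

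**Figure D1:**
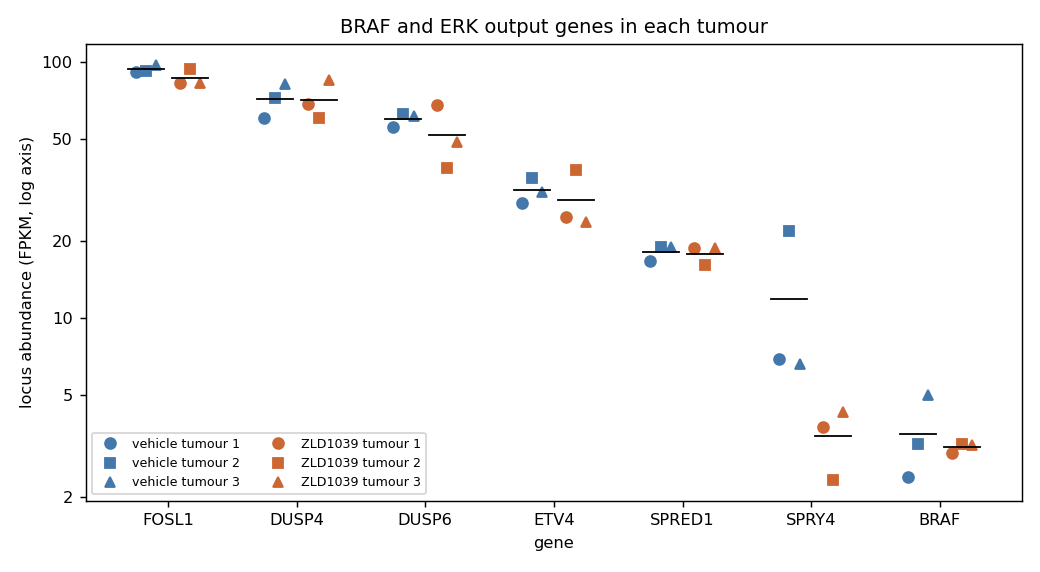
Locus abundance in FPKM on a log axis for the 7 tested genes, with 1 point per tumour (blue vehicle, orange ZLD1039, shapes for tumours 1 to 3) and a line at each group mean. FOSL1 lies highest, between 82.8 and 97.3 FPKM, and the groups are apart only for SPRY4.

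The members covered a wide range of levels, which FPKM allows to be compared per length. Mean FPKM over the 6 tumours went from 89.9 for FOSL1 through 71.2 for DUSP4, 55.6 for DUSP6, 30.1 for ETV4, 18.0 for SPRED1 and 7.62 for SPRY4 to 3.32 for BRAF. This order depends on the quantity that set the locus value. By summed ends DUSP4 lay below DUSP6 in every tumour. FOSL1 and DUSP4 lay above 97.5% and 96.6% of all loci, and BRAF above 46.3%. Ranges overlapped between FOSL1 and DUSP4, between DUSP4 and DUSP6, between SPRED1 and SPRY4, and between SPRY4 and BRAF. They did not overlap between DUSP6 and ETV4 or between ETV4 and SPRED1. FOSL1 and SPRED1 varied least over the tumours, with coefficients of variation of 6.57% and 6.92%, and SPRY4 most, with 94.4%.

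BRAF (ENSG00000157764, chromosome 7, 140419127 to 140624509, minus strand) stood at 2.38, 3.21 and 4.97 FPKM in vehicle tumours 1, 2 and 3. Under ZLD1039 it stood at 2.97, 3.20 and 3.18 FPKM, inside the range of the vehicle tumours. The log2 difference was -0.095 (SE 0.24, 95% interval -0.66 to 0.47, limma, adjusted p = 0.953). Without vehicle tumour 3, the highest, it was 0.13.

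The phosphatase DUSP4 (ENSG00000120875, chromosome 8, 29190581 to 29208185, minus strand) acts on ERK in the nucleus. It measured 60.0, 72.2 and 81.8 FPKM under vehicle and 68.2, 60.0 and 85.0 FPKM under ZLD1039. The groups spanned nearly the same range, and the log2 difference was -0.0090 (SE 0.20, 95% interval -0.46 to 0.45, limma, adjusted p = 0.996). Its sign turned when vehicle tumour 2 or 3 or ZLD1039 tumour 1 or 2 was left out. These values are those of the start at 29207363 to 29208185, and the single end of the locus (29190581 to 29193636) carried less, 26.6 to 40.6 FPKM under vehicle and at most 36.3 FPKM under ZLD1039.

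DUSP6 (ENSG00000139318, chromosome 12, 89741009 to 89747048, minus strand) encodes a phosphatase that holds and dephosphorylates ERK in the cytoplasm. Vehicle tumours measured 55.4, 62.2 and 61.6 FPKM, and ZLD1039 tumours 67.8, 38.3 and 48.4 FPKM. ZLD1039 tumour 1 was the highest of the 6 and ZLD1039 tumours 2 and 3 the lowest, so that the treated tumours enclosed the vehicle range. The log2 difference was -0.25 (SE 0.22, 95% interval -0.76 to 0.26, limma, adjusted p = 0.884). It was -0.057 without ZLD1039 tumour 2 and -0.46 without ZLD1039 tumour 1.

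SPRY4 (ENSG00000187678, chromosome 5, 141599638 to 141704566, minus strand) encodes a Sprouty protein, an inhibitor of signalling from growth factor receptors to ERK. It measured 6.91, 21.9 and 6.58 FPKM under vehicle and 3.75, 2.32 and 4.29 FPKM under ZLD1039. Each ZLD1039 tumour lay below each vehicle tumour, and vehicle tumour 2 lay far above the other 5. Group means were 11.8 ± 8.73 and 3.46 ± 1.02 FPKM (SD, n = 3). The log2 difference was -1.34 (SE 0.43, 95% interval -2.33 to -0.36, limma, unadjusted p = 0.0139, adjusted p = 0.881). Without vehicle tumour 2 it was -0.82 (limma, adjusted p = 0.996).

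The locus is far wider than SPRY4, which is known to lie at its upstream end, so that the locus value can hold transcripts from outside the gene. The values rested on start events, since an end was listed only in vehicle tumour 1, at 2.00 FPKM, downstream of the gene. The upstream start (141704409 to 141704566) carried 6.91, 21.9 and 4.32 FPKM in vehicle and 3.75, 2.32 and 3.77 FPKM in ZLD1039 tumours. Its groups were apart as well, though vehicle tumour 3 and ZLD1039 tumour 3 nearly met (log2 difference -1.22, limma, unadjusted p = 0.0595, adjusted p = 0.855). A second start (141636987 to 141637450), which lies downstream of the gene but counts in the locus value, was listed at 2.26 FPKM in vehicle tumour 3 and 0.519 FPKM in ZLD1039 tumour 3 only, which left the upstream start 65.7% and 87.9% of the start abundance there and 100% in the other 4 tumours (limma, adjusted p = 0.844). An exon of 51 bases (141699309 to 141699359) was part of transcripts at 4.90, 21.9 and 4.32 FPKM under vehicle. Under ZLD1039 these transcripts were listed in tumour 3 alone, at 3.77 FPKM (limma, unadjusted p = 0.0231, adjusted p = 0.855). In ZLD1039 tumour 1, transcripts with exons downstream of the gene (141627788 to 141633719) stood at 3.75 FPKM, the value of its upstream start. In ZLD1039 tumour 2 exons there (141627788 to 141628056 and 141633440 to 141633719) were listed at 1.20 and 1.12 FPKM. In vehicle tumour 1 they were listed at 2.00 FPKM. In ZLD1039 tumour 2 transcripts with either exon totalled 2.32 FPKM, the value of its upstream start. In vehicle tumours 2 and 3 and ZLD1039 tumour 3 the transcripts with the exon of 51 bases matched the upstream start in value. The values of ZLD1039 tumours 1 and 2 thus rested on other transcripts than those of these tumours. The part of this in the group difference was not tested.

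SPRED1 (ENSG00000166068, chromosome 15, 38544527 to 38650830, plus strand) encodes a protein that brings the RAS inhibitor neurofibromin to the membrane. It measured 16.7, 18.8 and 18.8 FPKM under vehicle and 18.7, 16.0 and 18.7 FPKM under ZLD1039. The 6 values lay between 16.0 and 18.8 FPKM, and the log2 difference was -0.024 (SE 0.15, 95% interval -0.38 to 0.33, limma, adjusted p = 0.980). The sign turned when vehicle tumour 2 or 3 or ZLD1039 tumour 2 was left out. SPRY2 (ENSG00000136158), another Sprouty inhibitor, was listed in ZLD1039 tumour 3 alone, at 1.40 FPKM. That locus lies on the plus strand (chromosome 13, 80914204 to 80915011), while SPRY2 is known to lie on the minus strand. Reads of a gene and of its antisense partner cannot be told apart without strand, and no value of SPRY2 itself can be given.

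Among the transcription factors, ETV4 (ENSG00000175832, chromosome 17, 41605212 to 41623800, minus strand) measured 28.1, 35.0 and 31.1 FPKM under vehicle and 24.8, 37.9 and 23.6 FPKM under ZLD1039. ZLD1039 tumour 2 was the highest and ZLD1039 tumours 1 and 3 the lowest of the 6. The log2 difference was -0.15 (SE 0.21, 95% interval -0.65 to 0.35, limma, adjusted p = 0.913), and -0.36 without ZLD1039 tumour 2. It was -0.061 and -0.0285 without ZLD1039 tumour 1 or 3, and -0.071 without vehicle tumour 2. A further locus under the same identifier but on the plus strand (41626169 to 41630475) was listed in vehicle tumour 3 alone, at 0.646 FPKM, and was not used.

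FOSL1 (ENSG00000175592, chromosome 11, 65659520 to 65667890, minus strand), which encodes the AP-1 subunit FRA1, measured 91.0, 92.3 and 97.3 FPKM under vehicle. Under ZLD1039 it measured 82.8, 93.5 and 82.8 FPKM, with tumours 1 and 3 below the vehicle range and tumour 2 inside it. The log2 difference was -0.12 (SE 0.15, 95% interval -0.46 to 0.23, limma, adjusted p = 0.909).

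Across the tumours, the mean log2 deviation of the 7 genes from their own means was -0.074, 0.32 and 0.18 in vehicle tumours 1, 2 and 3, and -0.10, -0.22 and -0.10 in ZLD1039 tumours 1, 2 and 3. On this average all ZLD1039 tumours lay below all vehicle tumours. Without SPRY4 the averages were -0.12, 0.090 and 0.19 under vehicle and -0.026, -0.083 and -0.051 under ZLD1039, and vehicle tumour 1 was then the lowest of the 6. ZLD1039 tumour 2, which stands apart over all loci, held the lowest value of DUSP4, DUSP6, SPRY4 and SPRED1 and the highest of ETV4. For DUSP4 it was level with vehicle tumour 1 after rounding, both at 60.0 FPKM. Members above their own mean of log2(FPKM + 1) numbered 3, 6 and 7 of 7 in vehicle tumours 1, 2 and 3. In each ZLD1039 tumour there were 2 of 7.

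Among the single transcript events of these genes, none of 55 tested differed after adjustment (limma, smallest adjusted p = 0.855), where 0.0362% of all events did. An unadjusted p under 0.05 was found for 9 of the 55, with 4.70% among all 82894 events tested. Events of a transcript share their values, and these 9 held 4 distinct sets of values in FOSL1, ETV4 and SPRY4.

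FOSL1 held 2 of these sets. Transcripts that skip the exon at 65661485 to 65661592 stood at 25.8, 18.5 and 16.2 FPKM under vehicle and at 28.6, 31.2 and 28.1 FPKM under ZLD1039. All ZLD1039 tumours lay above all vehicle tumours, with a log2 difference of 0.54 (limma, unadjusted p = 0.0345, adjusted p = 0.855). Transcripts that keep the intron at 65661587 to 65664280 stood at 9.30, 10.0 and 8.92 FPKM under vehicle and 9.61 FPKM in ZLD1039 tumour 2. They were not listed in ZLD1039 tumours 1 and 3 (limma, unadjusted p = 0.0451, adjusted p = 0.855). In ETV4, the exon at 41622926 to 41623036 was listed in 2 events. The larger stood at 14.3, 20.5 and 17.7 FPKM under vehicle and 12.0, 13.6 and 10.2 FPKM under ZLD1039, with the groups apart (limma, unadjusted p = 0.0424, adjusted p = 0.855). The smaller stood at 1.25, 0.986 and 1.15 FPKM and 1.41, 2.50 and 1.07 FPKM, a log2 difference of 0.29. Summed over both, transcripts with the exon stood at 15.5, 21.5 and 18.8 FPKM under vehicle and 13.4, 16.1 and 11.2 FPKM under ZLD1039, and the groups overlapped.

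No share within a member locus passed the threshold. For an exon or intron with given borders, inclusion is the abundance of transcripts that hold it as a percentage of those listed as holding or lacking that form. Forms of 1 exon with other borders are not in the sum. Of the members' items, 7 of 23, all in FOSL1 and ETV4, could be tested and none passed or had an unadjusted p under 0.05 (limma, smallest unadjusted p = 0.127, adjusted p = 0.719), where 0% of 13274 passed over all loci and 278 had an unadjusted p under 0.05. The smallest p belonged to the short form of the FOSL1 exon (65661485 to 65661587), included at 16.3, 35.9 and 27.6% under vehicle and 15.2, 15.3 and 3.25% under ZLD1039. Its difference was -15.3 percentage points with a 95% interval of -36.4 to 5.76, on transcripts with that form at 0.946 to 10.3 FPKM. The longer and more abundant form (65661485 to 65661592, 47.1 to 66.0 FPKM) was included at 66.4, 74.3 and 80.3% under vehicle and 63.2, 60.1 and 65.6% under ZLD1039. All ZLD1039 tumours lay just below all vehicle tumours, with a difference of -10.7 percentage points (95% interval -43.1 to 21.8, limma, adjusted p = 0.756). In ETV4 the smallest p (0.263 by limma, adjusted p = 0.719) was that of an intron (41622738 to 41622926) retained at 100% in all tumours but ZLD1039 tumour 3, where it was 50.4% of 2.49 FPKM. Totals in vehicle tumour 3 and ZLD1039 tumour 1 were only 0.076 and 0.0718 FPKM, and the splice form counted as removing this intron was listed in ZLD1039 tumour 3 alone. The same intron with the border used by most transcripts (41622735 to 41622926) was retained at 15.6, 7.22 and 0.402% under vehicle and 0.534, 22.4 and 10.0% under ZLD1039 (limma, adjusted p = 0.887). BRAF listed 2 skippable exons (140447166 to 140447247 and 140508037 to 140508116), and transcripts that include them did not exceed 0.207 FPKM in any tumour.

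**Figure D2:**
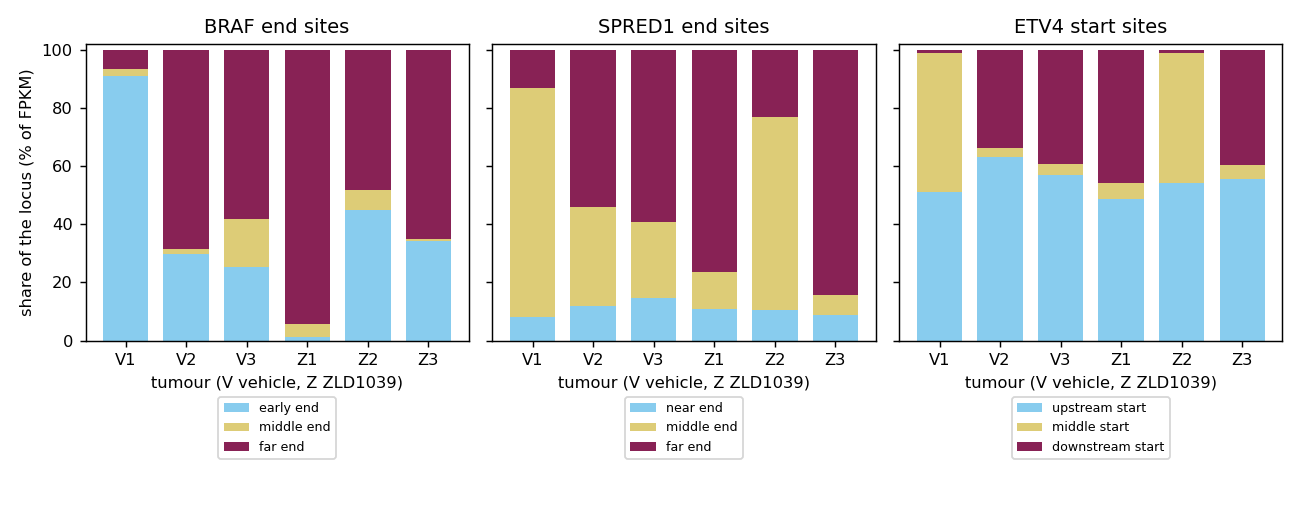
Shares of the end sites of BRAF and SPRED1 and of the start sites of ETV4 in percent of the locus, with 1 bar per tumour (V vehicle, Z ZLD1039). In SPRED1 and ETV4 the middle site takes 44.8% or more in vehicle tumour 1 and ZLD1039 tumour 2 and 34.1% or less in the other 4.

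Sites of transcript start and end varied between tumours of 1 group. No start site (5 tested, limma, smallest unadjusted p = 0.493, adjusted p = 0.844) and no end site (6 tested, limma, smallest unadjusted p = 0.297, adjusted p = 0.774) of a member passed the threshold. Over all loci 0% of 21321 start sites and 0% of 4610 end sites passed, with unadjusted p under 0.05 for 530 and 132. FOSL1, DUSP4, DUSP6, SPRED1 and BRAF each listed a single start site. These were 65667712 to 65667890 for FOSL1, 89745417 to 89747048 for DUSP6, 38544527 to 38545418 for SPRED1 and 140624366 to 140624509 for BRAF. Transcripts from the BRAF start stood at 2.22, 2.84 and 4.02 FPKM under vehicle and 2.71, 1.66 and 1.11 FPKM under ZLD1039 (log2 difference -0.53, limma, adjusted p = 0.855). BRAF transcripts ended at 3 sites. The far end (140419127 to 140426316), 205 kb from the start, took 6.62, 68.7 and 58.3% under vehicle and 94.3, 48.1 and 65.2% under ZLD1039. The early end (140533861 to 140534672), 90.6 kb from the start, took 91.1, 29.8 and 25.3% under vehicle and 1.37, 45.0 and 34.1% under ZLD1039. The highest share of the early end was in vehicle tumour 1 and the lowest in ZLD1039 tumour 1. The difference at the far end was 24.7 percentage points, with a 95% interval of -28.3 to 77.7 (limma, adjusted p = 0.774), on totals of 2.38 to 4.97 FPKM.

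SPRED1 ended at 3 sites too, and the middle and far ends lay close together, 105 and 106 kb from the start. The middle end (38643215 to 38649450) took 78.8, 34.1 and 26.0% under vehicle and 12.7, 66.2 and 6.90% under ZLD1039. The far end (38650387 to 38650830) took 13.1, 54.1 and 59.2% under vehicle and 76.4, 23.2 and 84.4% under ZLD1039, a difference of 19.2 percentage points (95% interval -36.7 to 75.2, limma, adjusted p = 0.820). So the total of SPRED1 was even over the tumours while its ends were not.

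ETV4 used an upstream start (41623553 to 41623800) for 51.1, 63.3 and 57.0% of its start abundance under vehicle and 48.6, 54.1 and 55.7% under ZLD1039. Most of the rest came from the middle start (41623229 to 41623393) in vehicle tumour 1, with 47.7%, and in ZLD1039 tumour 2, with 44.8%. In the other 4 tumours that start took 2.82 to 5.69%, and the downstream start (41622926 to 41623039) took 33.8 to 45.7%. The pair that stood apart in ETV4 was also the pair with most of its SPRED1 transcripts at the middle end. It held 1 tumour of each group. Over all tested loci the deviations of these 2 tumours from their group means correlated at -0.063. The pattern was picked after its values were seen and was not tested.

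The other genes of the pathway comprised a list of 40, of which 36 had rows and all 36 were tested. ERBB3, NRAS, KSR1 and SPRED3 had no rows. None passed the threshold (limma, smallest adjusted p = 0.775), 3 had an unadjusted p under 0.05, and 17 lay above and 19 below 0. In 6 of the 36 (16.7%) all ZLD1039 tumours lay below all vehicle tumours, and in none above, where the shares over all loci were 5.20% and 5.75%. The list was chosen with earlier results of these data known, so these shares do not test it as a set. The 6 were the inhibitors DUSP1, DUSP5 and SPRED2, from 7 tested, and the output genes EGR1, EMP1 and MAFF, from 9 tested. None of the 5 receptors, 5 adaptors and exchange factors or 10 kinases and GTPases from RAS to RSK was among them.

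**Figure D3:**
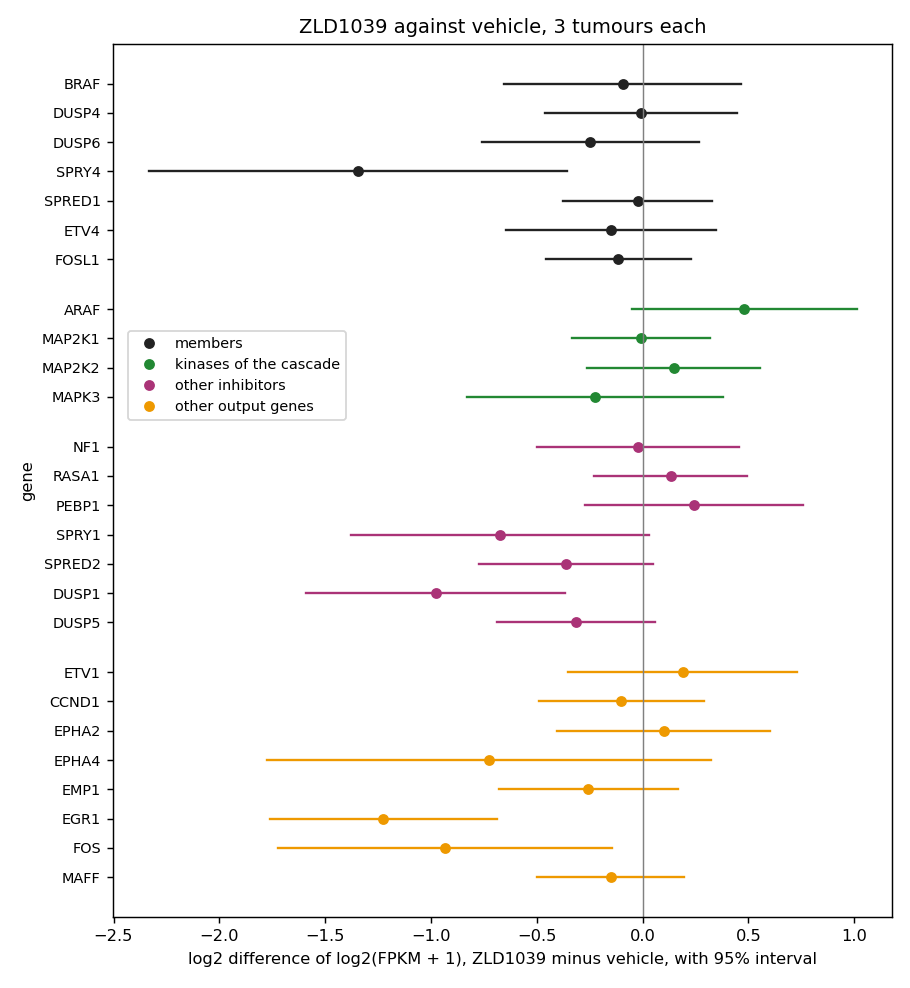
Log2 differences of log2(FPKM + 1), ZLD1039 minus vehicle, with 95% intervals from limma, for the members, 4 kinases of the cascade, other inhibitors and other output genes (3 tumours per group; IER3, listed in 1 tumour, is left out). The intervals of SPRY4, DUSP1, EGR1 and FOS lie below 0, and none of these passed the adjusted threshold.

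EGR1, an immediate early transcription factor, measured 38.6, 54.2 and 51.1 FPKM under vehicle and 23.6, 22.4 and 14.5 FPKM under ZLD1039. Its log2 difference was -1.23 (SE 0.23, 95% interval -1.76 to -0.69, limma, adjusted p = 0.775). DUSP1, a nuclear phosphatase of MAP kinases and itself an early response gene, measured 20.9, 40.1 and 38.7 FPKM under vehicle and 17.7, 13.5 and 16.3 FPKM under ZLD1039. Its log2 difference was -0.98 (95% interval -1.59 to -0.37, limma, adjusted p = 0.881). FOS, whose groups overlapped, measured 6.22, 13.7 and 12.9 FPKM and 5.64, 6.80 and 3.10 FPKM, a log2 difference of -0.93. For EGR1, DUSP1 and FOS alike, vehicle tumour 1 was the lowest of its group.

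DUSP5, an ERK phosphatase of the nucleus, measured 28.7, 35.1 and 27.7 FPKM under vehicle and 25.0, 25.2 and 22.4 FPKM under ZLD1039 (log2 difference -0.32, limma, adjusted p = 0.881). SPRED2, a relative of SPRED1, measured 21.2, 21.6 and 23.0 FPKM and 18.5, 13.5 and 19.1 FPKM (log2 difference -0.36, limma, adjusted p = 0.881). Without ZLD1039 tumour 2 the SPRED2 difference was -0.21. The membrane protein gene EMP1 measured 80.8, 80.4 and 108 FPKM and 80.0, 65.9 and 77.6 FPKM, so that its groups nearly met. Its log2 difference was -0.26, and -0.12 without vehicle tumour 3. MAFF, a small bZIP factor, measured 9.83, 9.41 and 10.1 FPKM and 8.84, 7.99 and 9.39 FPKM, also nearly touching, and its difference of -0.15 was -0.094 without ZLD1039 tumour 2.

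**Figure D4:**
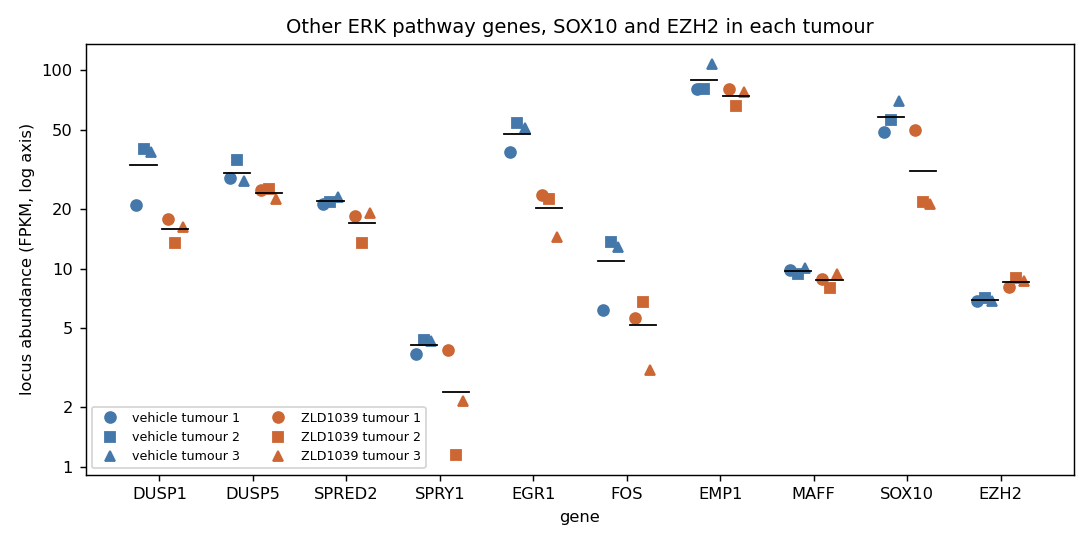
Locus abundance in FPKM on a log axis for 8 other ERK pathway genes, SOX10 and EZH2, with 1 point per tumour (blue vehicle, orange ZLD1039) and a line at each group mean. All 8 had log2 differences below 0, SPRY1 and FOS with overlapping groups. The 2 other inhibitors and 2 other output genes with differences above 0 are not drawn. EGR1 lies between 38.6 and 54.2 FPKM in vehicle tumours and between 14.5 and 23.6 FPKM in ZLD1039 tumours.

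Of the kinases of the cascade, MAP2K1, which encodes MEK1, measured 27.5, 27.8 and 26.6 FPKM under vehicle and 26.2, 27.7 and 27.5 FPKM under ZLD1039, with a log2 difference of -0.0085 (95% interval -0.33 to 0.32), which was 0.0045 and 0.016 without vehicle tumour 2 or ZLD1039 tumour 1. MAP2K2, which encodes MEK2, measured 16.5, 16.7 and 21.2 FPKM and 17.3, 21.9 and 21.3 FPKM, with overlapping groups and a difference of 0.15, which ranged from 0.086 to 0.26 with 1 tumour left out. The difference of MAPK3, which encodes an ERK kinase, was -0.22 and ranged from -0.48 to -0.052 with 1 tumour left out. ARAF measured 7.67, 6.62 and 8.97 FPKM under vehicle and 7.87, 13.1 and 13.3 FPKM under ZLD1039, with tumour 1 inside the vehicle range (log2 difference 0.48, limma, adjusted p = 0.881). The adjusted p of each of these kinases was at least 0.881 (limma).

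EZH2, the target of ZLD1039, measured 6.88, 7.09 and 6.85 FPKM under vehicle and 8.07, 8.96 and 8.63 FPKM under ZLD1039. All ZLD1039 tumours lay above all vehicle tumours, with a log2 difference of 0.27 (95% interval -0.074 to 0.61, limma, adjusted p = 0.881). Transcript abundance does not measure inhibition of the enzyme. The lineage factor SOX10 measured 48.8, 56.0 and 70.0 FPKM under vehicle and 50.2, 21.8 and 21.3 FPKM under ZLD1039, so that 2 of the 3 treated tumours lay below the rest (log2 difference -0.98, limma, adjusted p = 0.881). The part of SOX10 in the differences of SPRY4, EGR1 and DUSP1 was not tested. Of the other lineage markers, MITF measured 1.43, 1.39 and 2.21 FPKM under vehicle and 0.579, 1.34 and 1.38 FPKM under ZLD1039. Its groups were apart but nearly met (log2 difference -0.36, limma, adjusted p = 0.881). The groups of S100B overlapped, with a log2 difference of -0.66 (limma, adjusted p = 0.881).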

How the data were processed

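RNA of 6 tumours was compared, 3 per group, grouped by sample title. The authors deposited FPKM values per transcript event, per the file headers. Fragment depth is unknown, so no count model was used. Per the submitters' processing notes, the tools included HTSeq 0.6.1 and bcl2fastq 2.17.1.14, and the build was mm10, of the mouse. The sources used here name neither aligner nor assembler. Positions are human: chromosome 1 reaches 249214145, past the last mm10 gene end (195323493), so they are printed as in the files. The reference tables hold mouse genes only. Member symbols come from the rule, and other symbols were paired with identifiers from background knowledge and kept where the locus lay within 2 Mb of the known GRCh37 position. Where an identifier had several loci, the one with the highest mean was used. Exon and UTR annotation was not used here. No sequence is printed.

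Unlisted values were set to 0. A locus or event entered the tests if either group averaged 1 FPKM or more. The tests used limma 3.58.1 (R 4.3.3) with a variance trend and no block. Loci and events were fitted as log2(FPKM + 1) and shares in percent. P-values were adjusted over all loci, over all events, or over all shares of 1 kind (inclusion, start or end), with a threshold of 0.05. Shares needed a mean total of at least 1 FPKM, a total above 0 in all tumours and a mean share over 1% and under 99%. The fits were also run on simulated data with planted changes larger than most member differences. That does not show whether differences as small as those of most members could be found. The members, lists and tests were chosen with earlier results of these data known. All members are named, as are pathway genes whose groups do not overlap, kinases of the cascade (some are not reported here by name), EZH2, and the share with the smallest p per member. FOS, IER3, SOX10 and the FOSL1 and ETV4 events were named after their values were seen, as were the group values of MITF and S100B. SPRY1, shown in figures only, also falls outside these rules.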

Additional observations from a re-analysis of the deposited data

How the results depend on the processing

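No member locus was called in any of 15 alternatives, and no member event or share in any of 10 each (limma). Of the 18 genes examined, 14 kept the sign of their log2 difference throughout. Between them, DUSP4, SPRED1, BRAF and MAP2K1 turned sign, all from differences within 0.1. Without single tumours the log2 difference ranged from -0.14 to 0.10 for DUSP4, -0.077 to 0.046 for SPRED1, -0.28 to 0.13 for BRAF and -0.027 to 0.016 for MAP2K1. SPRY4 ranged from -1.62 to -0.82 with 1 tumour left out, and its smallest adjusted p over all alternatives was 0.514. BRAF moved to -0.53 with summed starts as the locus value. Both groups number their tumours 1 to 3, but deviations of same-numbered tumours correlated at -0.032, 0.020 and -0.061, so the numbers were not taken as pairs. With the replicate block 0 members were called, as without it. Over all loci 2 were called, and 0 to 2 in the alternatives. Over all events 30 were called, against 20 with a pseudocount of 0.1, 3 without the filter on low values, 60 without the mean-variance trend, 0 with the block and 0 to 6 with 1 tumour left out. Without the trend 15 inclusion shares, 11 start shares and 7 end shares of other loci were called, and 4, 1 and 2 on a log2 ratio scale, against 0. The cause of these changes was not tested. Unknown depth and wide intervals limit what shares of low loci such as BRAF can show.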

Other observations

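Transcripts at the known position of ETV5 were listed under another identifier. A locus under ENSG00000058866 on the minus strand of chromosome 3 spans 185766604 to 185999048, and ETV5 lies at its downstream end in GRCh37, from background knowledge. The start at 185826729 to 185826901 carried 8.83, 10.6 and 16.5 FPKM in vehicle and 2.27, 12.3 and 14.4 FPKM in ZLD1039 tumours. The end at 185766604 to 185766649 carried 8.28, 8.30 and 15.8 FPKM and 13.0, 11.3 and 11.8 FPKM. The low start value of ZLD1039 tumour 1 was thus not matched by its end value. The whole locus measured 10.1 to 17.5 FPKM under vehicle and 13.0 to 15.0 FPKM under ZLD1039, a log2 difference of 0.16 (limma, adjusted p = 0.910). These values stand outside the counts of members, since the rule goes by identifier.

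Among the receptors upstream of RAS, MET, the receptor of hepatocyte growth factor, measured 21.5, 14.2 and 8.98 FPKM under vehicle and 13.6, 32.6 and 35.3 FPKM under ZLD1039 (log2 difference 0.80, limma, adjusted p = 0.881). AXL measured 27.2, 23.5 and 26.7 FPKM and 23.7, 33.2 and 38.5 FPKM (log2 difference 0.27, limma, adjusted p = 0.881). In both, and in ARAF, ZLD1039 tumours 2 and 3 lay above all vehicle tumours and ZLD1039 tumour 1 did not. SOX10 showed the same division of the treated tumours in the other direction. These genes were picked after their values were seen, and the shared division was not tested.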
